A study of Homo sapiens with 2 samples.

Results

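The genes described here are 47 members of the DNA repair pathways, read on a pair of oligonucleotide arrays of PC-3 cells, an androgen-independent line derived from a bone metastasis of a prostate cancer. The siSHISA2 array was hybridised with RNA from PC-3 cells given an shRNA vector against SHISA2, and the siCONTROL array with RNA from PC-3 cells given a control shRNA vector. Each group is 1 array, so every difference below is one between these 2 arrays, with no replicate check and no p-value, and precision is limited by there being so few arrays. The sources used here do not say how many hairpins, clones or cultures stood behind each RNA.

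Each gene was represented by its brightest probe set among those annotated to that gene alone. Its value is the log2 ratio of the siSHISA2 over the siCONTROL signal, with signals under a floor of 47.9 raised to the floor. Of the 47 members, 42 had a signal above the floor in at least 1 array, among 12931 measured genes of 19775 on the array. FANCA, FANCD2, BRCA2 and RBBP8 had no probe set annotated to them alone, and the only probe set of XRCC3 was under the floor in both arrays, so these 5 have no value. The members were listed by gene name, with earlier results of these data known, so their counts are a description of these genes and not an independent sample of the pathways. They were divided by role into 26 recombination and Fanconi genes (21 measured), 17 genes of mismatch repair, end joining and excision repair (all measured) and 4 checkpoint kinases (all measured).

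Cells repair a DNA break that arises in a replicated chromosome by homologous recombination, which copies the intact sister chromatid. The Fanconi pathway unhooks crosslinks between the strands, and passes the resulting break to the same recombination proteins. Both act mainly in the S and G2 phases of the cell cycle, and transcripts of many of their genes are known to be most abundant in cycling cells. End joining seals breaks without a template at any stage, mismatch repair corrects replication errors, and excision repair replaces damaged bases or short patches of one strand throughout the cycle. The kinases ATM and ATR sense damage and signal through CHEK2 and CHEK1 to halt the cycle.

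SHISA2 itself read 1506 in the siSHISA2 array, against 3536 in the siCONTROL array (log2 ratio -1.23). The ratio of 3' to 5' signal, a sign of RNA integrity, on ACTB was 4.79 in the siSHISA2 array and 5.0 in the siCONTROL array. On GAPDH it was 1.36 in the siSHISA2 array and 1.55 in the siCONTROL array. The epithelial keratin KRT18 (17533 in the siSHISA2 array and 18340 in the siCONTROL array) and vimentin, VIM (15025 in the siSHISA2 array and 16506 in the siCONTROL array), were bright in both arrays, while CDH1, the epithelial cadherin, was under the floor. Of 16 markers of leukocytes, endothelium and fibroblasts 6 were measured, and PTPRC, CD14, LYZ, VWF, KDR, TEK, COL1A2, COL3A1, LUM and PDGFRB were under the floor in both arrays. Those measured were CDH5 (261.5 with siSHISA2 and 155.9 with siCONTROL), CD79A (164.6 with siSHISA2 and 109.1 with siCONTROL), PECAM1 (121.7 with siSHISA2 and 104.6 with siCONTROL) and COL1A1 (577.0 with siSHISA2 and 787.2 with siCONTROL), besides CD3E and DCN, whose siCONTROL signals were under the floor. The summed signals of these marker lists were 264.7 with siSHISA2 and 170.3 with siCONTROL for leukocytes, 411.5 with siSHISA2 and 294.8 with siCONTROL for endothelium, and 687.6 with siSHISA2 and 901.2 with siCONTROL for fibroblasts. Their part in the repair gene values was not tested. Of 5 markers of the androgen axis 2 were measured, KLK3 and KLK2, with signals of at most 251.0 in the siSHISA2 array and 242.3 in the siCONTROL array.

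Most of the measured recombination and Fanconi members were lower in the siSHISA2 array, and most of the other repair members were not. This describes the members: 36 further measured genes of recombination and the Fanconi pathway had a median of -0.07, with 8.33% at least 0.3 lower. The median log2 ratio was -0.37 over the 21 recombination and Fanconi genes, against 0.03 over the 17 genes of mismatch repair, end joining and excision repair, a difference of -0.40. In the first group 19 of 21 were below 0, in the second 6 of 17, while 47.8% of all measured genes were below 0. At least 0.3 lower on the log2 scale (1.23-fold) were 14 of the 21 recombination and Fanconi genes and 1 of the 17 others, against a background of 13.0% of all measured genes. None of the 21 and 1 of the 17 were at least 0.3 higher, which 14.4% of all measured genes were. The checkpoint kinases had a median of 0.08, with all 4 within 0.3 of 0. In RNA from a whole culture, fewer cells that transcribe a gene and less RNA of that gene per cell cannot be told apart.

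**Figure D1:**
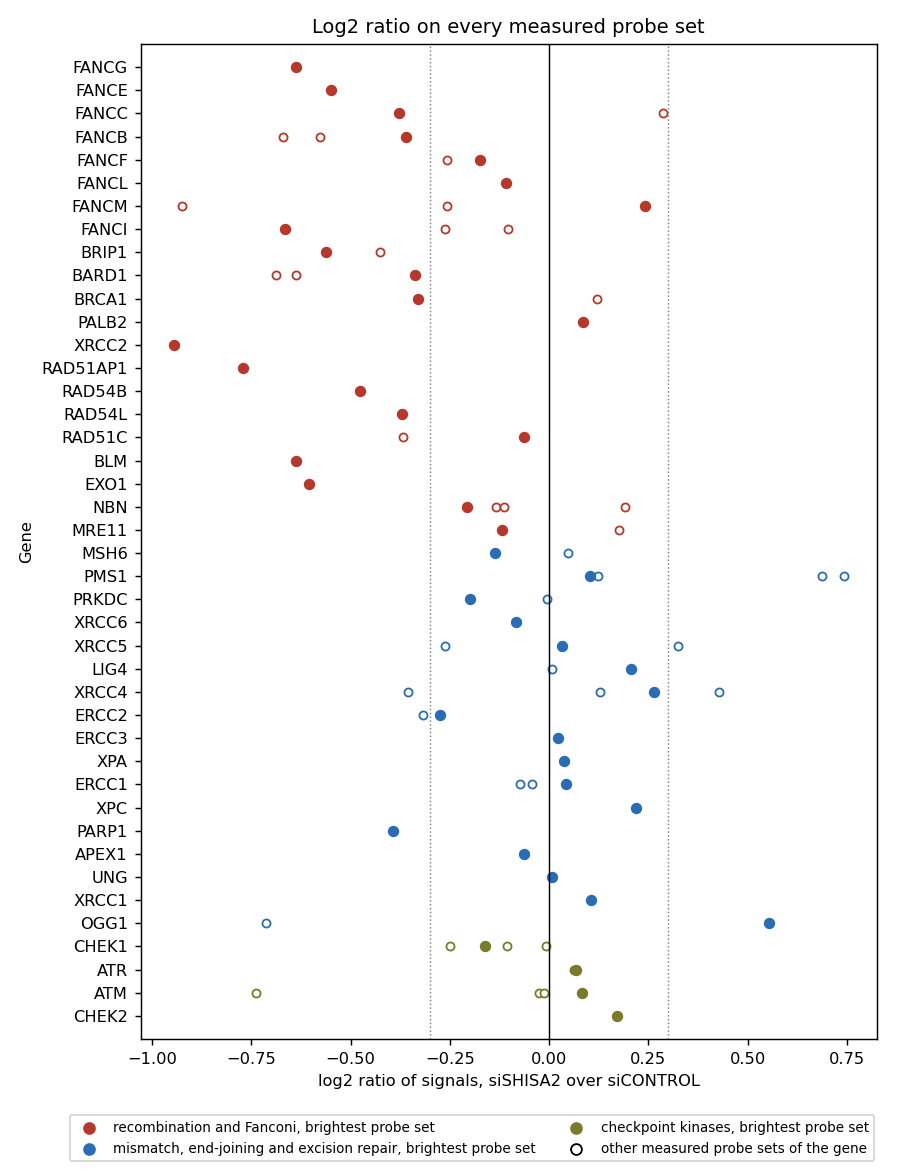
Log2 ratio of signals, siSHISA2 over siCONTROL (horizontal axis), for every measured probe set of the 42 measured genes (rows), with the brightest probe set of a gene filled and its other measured probe sets open. Dotted lines stand at -0.3 and 0.3. Of the 21 recombination and Fanconi genes in red 14 have their filled point at or left of -0.3, against 1 of the 17 genes in blue.

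None of the 42 genes reached 2-fold (log2 size of 1), which 0.565% of all measured genes did on the lower side and 0.920% on the higher. At least 0.5 lower were 8 members, all of them recombination and Fanconi genes, against a background of 5.43%. As a yardstick, the log2 ratios from a gene's 2 brightest probe sets were subtracted, and the SD of these differences over 6428 genes, scaled to 1 probe set by dividing by √2, was 0.286. With all signals above 387.3, the 75th percentile of all signals, it was 0.150 over 2827 genes. This spread covers probe sets within an array and leaves out cultures, extractions and hybridisations. The groups overlapped: 9 of the 21 recombination and Fanconi genes lay below PARP1, the lowest of the 17 others at -0.39. The share of all measured genes below -0.39 was not counted, but 13.0% were at least 0.3 lower and 5.43% at least 0.5 lower. FANCM and PALB2 lay above the median of the 17 others.

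To show what lies at the starts of genes that did and did not differ, upstream sequence is given for 4 lower members and 1 member near 0, taken from RefSeq (GRCh38.p14). Each runs 5′ to 3′ on the gene's own strand, from 250 bases before the annotated start through the first 30 bases of the transcript. Capitals mark matches, on either strand, to the core of the binding motif of E2F factors, which drive S-phase transcription, spelled TTNNCGC with each N being C or G.
RAD51AP1, plus strand, chr12:4538640-4538919: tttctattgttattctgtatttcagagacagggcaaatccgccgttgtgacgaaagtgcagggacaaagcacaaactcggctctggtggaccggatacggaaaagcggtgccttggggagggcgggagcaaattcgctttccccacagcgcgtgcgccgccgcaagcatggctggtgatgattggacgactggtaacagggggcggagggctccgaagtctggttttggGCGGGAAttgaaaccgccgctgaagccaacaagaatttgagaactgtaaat
XRCC2, minus strand, chr7:152676112-152676391: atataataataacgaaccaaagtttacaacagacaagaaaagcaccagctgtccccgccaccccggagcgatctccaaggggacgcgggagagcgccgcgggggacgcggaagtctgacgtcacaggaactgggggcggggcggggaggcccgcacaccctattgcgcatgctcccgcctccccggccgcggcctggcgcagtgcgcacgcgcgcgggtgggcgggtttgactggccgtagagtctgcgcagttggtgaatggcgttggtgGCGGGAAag
EXO1, plus strand, chr1:241847954-241848233: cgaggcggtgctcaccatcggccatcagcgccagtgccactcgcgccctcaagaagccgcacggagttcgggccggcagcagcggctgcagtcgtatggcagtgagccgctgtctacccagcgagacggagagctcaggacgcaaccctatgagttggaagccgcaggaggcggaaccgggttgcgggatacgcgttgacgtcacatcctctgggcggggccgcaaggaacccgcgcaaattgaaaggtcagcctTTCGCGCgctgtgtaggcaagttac
FANCC, minus strand, chr9:95317680-95317959: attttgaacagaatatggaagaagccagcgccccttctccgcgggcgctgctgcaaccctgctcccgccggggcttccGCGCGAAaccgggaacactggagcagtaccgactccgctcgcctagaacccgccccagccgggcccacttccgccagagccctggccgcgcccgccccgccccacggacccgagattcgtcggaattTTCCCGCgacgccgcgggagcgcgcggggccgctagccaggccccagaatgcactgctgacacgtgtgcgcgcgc
UNG, plus strand, chr12:109097922-109098201: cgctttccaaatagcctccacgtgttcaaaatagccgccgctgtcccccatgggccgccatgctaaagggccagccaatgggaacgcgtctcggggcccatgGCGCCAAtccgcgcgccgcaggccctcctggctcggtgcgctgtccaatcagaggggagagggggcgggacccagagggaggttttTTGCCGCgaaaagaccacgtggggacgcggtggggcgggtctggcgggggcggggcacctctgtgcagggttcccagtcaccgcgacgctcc

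Counting the first transcribed base as 1 and the base before it as -1, the match in RAD51AP1 lies at -21 to -15, that in XRCC2 at 22 to 28 and that in EXO1 at 6 to 12. FANCC holds one match at -172 to -166 and another at -45 to -39. UNG, whose log2 ratio was 0.01, holds matches at -148 to -142 and at -62 to -56. EXO1, FANCC and UNG each have a second annotated start, whose window is not printed.

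Windows of 300 bases, 250 before the start and 50 after it, were given for 42 of the 47 members, and a gene counted as matched if any of its windows held the core. The core was found in 16 of 23 recombination and Fanconi genes, in 10 of 15 genes of mismatch repair, end joining and excision repair, and in none of the 4 checkpoint kinases. Over all 35116 windows 13.0% held it, and over the 10480 measured genes with a window 24.2% did. Among recombination and Fanconi genes, 11 of the 12 that were at least 0.3 lower held the core, against 2 of the 6 measured ones that were not. Among the other repair genes, PARP1, the only lower one, held it, and so did 9 of the 14 that were not lower. The core thus occurred in both groups of repair genes, including members whose signals hardly differed. A longer spelling with T in front of the core was found in 5 of the 23 and 4 of the 15, against 6.45% of measured genes, and overlaps the core in each case. The cell cycle element known as CHR, spelled TTTGAA, was found in 2 of the 23, 3 of the 15 and 1 of the 4, against 13.8% of measured genes. These are letter matches, chosen with the expression values known, and no binding was measured.

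The Fanconi core complex is the ubiquitin ligase that starts crosslink repair. Of its 8 members 7 were measured, with a median log2 ratio of -0.36, and 4 were at least 0.3 lower. FANCG, a scaffold of the complex, read 345.6 in the siSHISA2 array, against 538.1 in the siCONTROL array (log2 ratio -0.64). FANCE, the bridge to the substrate, read 143.0 with siSHISA2, against 209.3 with siCONTROL (-0.55). FANCC, the partner of FANCE, read 387.1 with siSHISA2, against 503.4 with siCONTROL (-0.38). Its other measured probe set, at 58.4 with siSHISA2, against 37.2 with siCONTROL, had a ratio in the other direction (0.29, a bound, since its siCONTROL signal was under the floor). FANCB, which forms the catalytic module with FANCL, read 184.9 with siSHISA2, against 237.5 with siCONTROL (-0.36), and its 3 measured probe sets ran from -0.67 to -0.36.

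The other 3 core members were closer to 0. FANCL, the ligase subunit itself, read 2480 in the siSHISA2 array, against 2674 in the siCONTROL array (-0.11). FANCF, an adaptor, read 270.9 with siSHISA2, against 305.7 with siCONTROL (-0.17, and -0.26 on its other probe set). FANCM, the translocase that brings the complex to DNA, read 268.5 with siSHISA2, against 227.3 with siCONTROL (0.24), while its other measured probe sets had ratios of -0.26 and -0.93, so its direction depended on the probe set. On their brightest probe sets FANCG, FANCE, FANCC and FANCB were thus lower, while FANCL and FANCF differed less. FANCB shares the catalytic module with FANCL, and with 1 array per group these values cannot show whether the members divide by role. The core complex hands ubiquitin to the pair of FANCD2 and FANCI, of which FANCI was measured. It read 1435 in the siSHISA2 array, against 2278 in the siCONTROL array (-0.67), and all 3 of its measured probe sets were below 0, the other two at -0.26 and -0.10.

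**Figure D2:**
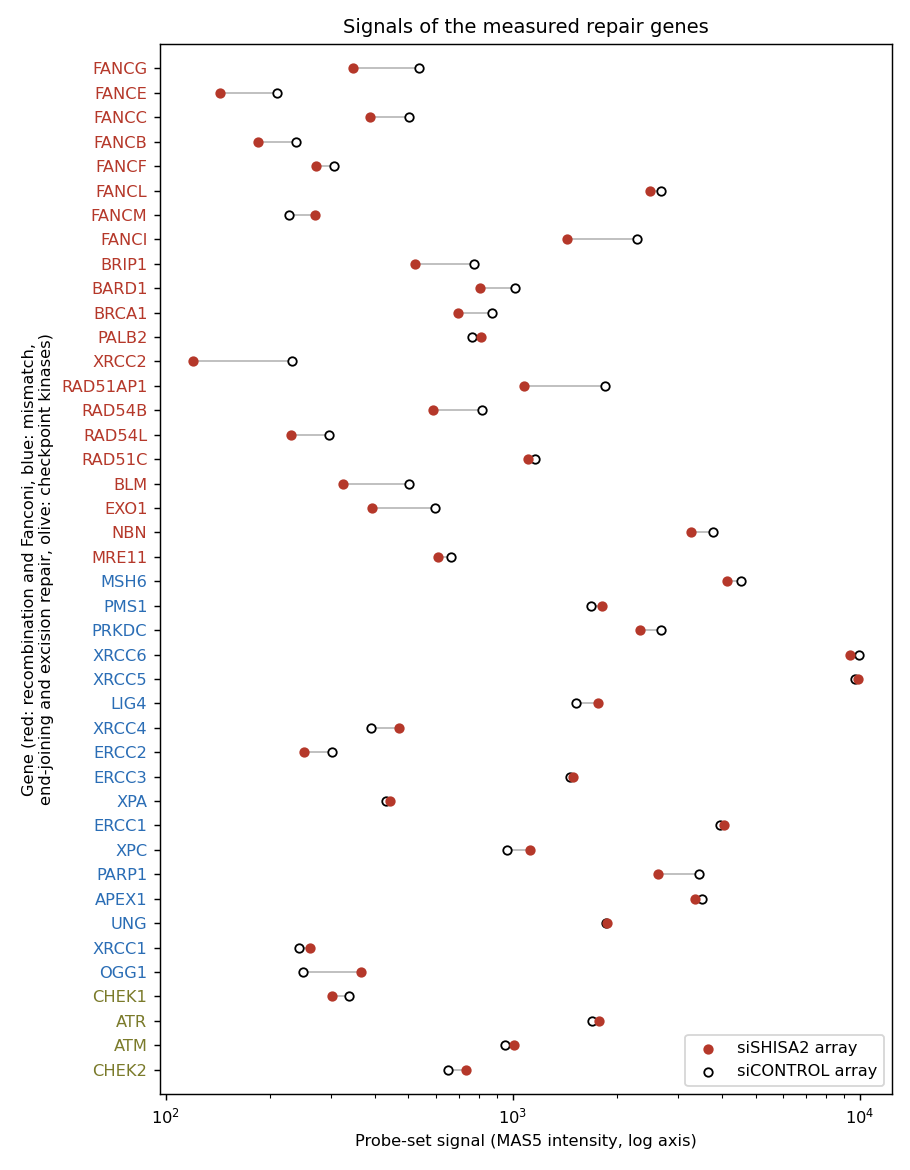
Probe-set signals (MAS5 intensity, log axis) of the 42 measured genes, each on the gene's brightest probe set, with the siSHISA2 array as red points and the siCONTROL array as open points joined by a line. Signals of different genes come from different probes and are not comparable; within a gene, XRCC2 (120.2 with siSHISA2 and 231.4 with siCONTROL) and RAD51AP1 (1080.3 with siSHISA2 and 1842.7 with siCONTROL) are the widest apart of the lower ones.

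BRCA1 and its partners bring the recombinase to resected ends. Of the 5 genes 4 were measured, with a median of -0.33. BRIP1, the helicase that binds BRCA1, read 521.4 in the siSHISA2 array, against 770.5 in the siCONTROL array (-0.56, and -0.43 on its other probe set). BARD1, the obligate partner of BRCA1 in its ubiquitin ligase, read 801.9 with siSHISA2, against 1013 with siCONTROL (-0.34), with its dimmer probe sets at -0.64 and -0.69. BRCA1 read 693.0 with siSHISA2, against 871.6 with siCONTROL (-0.33), and 0.12 on a dimmer probe set of the kind whose probes may also match other transcripts (names ending in _x_at or _s_at). PALB2, which links BRCA1 to BRCA2, was not lower, at 809.2 in the siSHISA2 array, against 763.1 in the siCONTROL array (0.08). BARD1 and BRIP1 were below 0 on all of their probe sets, and the linker PALB2 stood apart from them.

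Genes that act with the recombinase in strand exchange had a median of -0.48 over 5 of 6, with all 5 below 0. RAD51AP1, which stimulates strand pairing, read 1080.3 in the siSHISA2 array, against 1843 in the siCONTROL array (-0.77). That is 58.6% of the siCONTROL signal, on a probe set that was bright in both arrays. XRCC2, a paralog of the recombinase, read 120.2 with siSHISA2, against 231.4 with siCONTROL (-0.95), on dim signals and on a probe set of the kind with possible cross-matches. RAD54B, a DNA translocase that remodels paired strands, read 587.4 with siSHISA2, against 817.3 with siCONTROL (-0.48). Its relative RAD54L read 229.1 with siSHISA2, against 296.1 with siCONTROL (-0.37). RAD51C, another paralog of the recombinase, read 1105 with siSHISA2, against 1155 with siCONTROL (-0.06), and -0.37 on its other probe set. All 5 were lower in the siSHISA2 array in direction, and RAD51C was the one whose brightest probe set was within 0.3 of 0.

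Among genes of end resection and of the dissolution of joined molecules, 4 of 5 were measured and all 4 were below 0, with a median of -0.41. BLM, the helicase that dissolves double Holliday junctions, read 323.6 in the siSHISA2 array, against 503.9 in the siCONTROL array (-0.64). EXO1, the exonuclease of long-range resection, read 393.2 with siSHISA2, against 598.3 with siCONTROL (-0.61). The subunits of the complex that first processes a break differed less. MRE11, its nuclease, read 609.3 in the siSHISA2 array, against 661.8 in the siCONTROL array (-0.12), and 0.17 on a dim probe set. NBN, its adaptor to ATM, read 3260 with siSHISA2, against 3762 with siCONTROL (-0.21), with its 3 other measured probe sets from -0.13 to 0.19. RAD50, the third subunit and not one of the 47 genes, read 1282 with siSHISA2, against 1093 with siCONTROL (0.23). Its 3 measured probe sets ran from 0.14 to 0.34. The long-range nuclease and the helicase were lower, and the break-processing complex was within 0.3 of 0 on the brightest probe set of all 3 subunits.

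The mismatch repair genes differed little on their brightest probe sets. MSH6, which recognises mismatched bases, read 4128 in the siSHISA2 array, against 4534 in the siCONTROL array (-0.14, and 0.05 on its other measured probe set). PMS1, of the MutL family, read 1802.5 with siSHISA2, against 1679 with siCONTROL (0.10). Its dimmer probe sets gave ratios of up to 0.74, all above 0, and the highest is a bound because its siCONTROL signal was under the floor. Another, with both signals above the floor, read 297.8 with siSHISA2, against 184.8 with siCONTROL (0.69).

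The end-joining genes had a median of 0.03 over 5 of 5. The DNA-end binding proteins XRCC5 and XRCC6 were bright and nearly level on their brightest probe sets. XRCC5 read 9885 in the siSHISA2 array, against 9657 in the siCONTROL array (0.03), and XRCC6 read 9383 with siSHISA2, against 9943 with siCONTROL (-0.08). A further bright probe set of XRCC5 read 3128.5 with siSHISA2, against 3752.8 with siCONTROL (-0.26). Its dim probe set had a ratio of 0.32, a bound, since its siCONTROL signal was under the floor. PRKDC, the catalytic kinase subunit that XRCC5 and XRCC6 recruit, read 2323 with siSHISA2, against 2669 with siCONTROL (-0.20, and -0.01 on its other measured probe set). The ligase LIG4 was on the higher side at 1759 with siSHISA2, against 1524 with siCONTROL (0.21, and 0.01 on its other probe set). Its partner XRCC4 read 469.7 with siSHISA2, against 391.1 with siCONTROL (0.26), and its 4 probe sets ran from -0.36 to 0.43. None of the 5 reached 0.3 in either direction on its brightest probe set.

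Nucleotide excision repair genes had a median of 0.04, with 1 of 5 below 0. XPC, the damage sensor, read 1120.3 in the siSHISA2 array, against 962.7 in the siCONTROL array (0.22). XPA, which verifies damage, read 443.0 with siSHISA2, against 431.7 with siCONTROL (0.04). ERCC1, part of the incision nuclease, read 4070.4 with siSHISA2, against 3951.5 with siCONTROL (0.04), with all 3 of its probe sets between -0.07 and 0.04. The helicase subunits of TFIIH split: ERCC3 read 1488 with siSHISA2, against 1464 with siCONTROL (0.02), while ERCC2 read 249.8 with siSHISA2, against 302.0 with siCONTROL (-0.27, and -0.32 on its other probe set).

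Base excision repair held the only other members past 0.3. PARP1, the sensor of single-strand breaks, read 2622 in the siSHISA2 array, against 3446 in the siCONTROL array (-0.39). OGG1, the glycosylase for oxidised guanine, read 364.2 with siSHISA2, against 248.0 with siCONTROL (0.55), but its other measured probe set, at 66.7 with siSHISA2, against 109.4 with siCONTROL, had a ratio of -0.71. UNG, which removes uracil, read 1864 with siSHISA2, against 1854 with siCONTROL (0.01). APEX1, the endonuclease for abasic sites, read 3355 with siSHISA2, against 3508 with siCONTROL (-0.06). XRCC1, the scaffold of single-strand break repair, read 260.6 with siSHISA2, against 242.1 with siCONTROL (0.11). PARP1 was thus lower on 1 bright probe set, OGG1 had no settled direction, and the other three differed by at most 0.11.

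The checkpoint kinases were close to level. ATM read 1007 in the siSHISA2 array, against 951.0 in the siCONTROL array (0.08). ATR read 1769 with siSHISA2, against 1687 with siCONTROL (0.07, and 0.06 on its other measured probe set). CHEK2, the effector of ATM, read 732.3 with siSHISA2, against 650.4 with siCONTROL (0.17). CHEK1, the effector of ATR, was the lowest of them at 301.8 with siSHISA2, against 337.6 with siCONTROL (-0.16). All 4 of its probe sets were below 0, from -0.25 to -0.01. The value of -0.01 is a bound, since its siSHISA2 signal was under the floor and its siCONTROL signal, 48.2, barely above it. A dim probe set of ATM, at 36.7 with siSHISA2, against 79.9 with siCONTROL, had a ratio of -0.74, a bound, since its siSHISA2 signal was under the floor.

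Directions were also counted over all probe sets of a gene. Of the 11 recombination and Fanconi genes with several measured probe sets, 6 were below 0 on all of them (FANCB, FANCF, FANCI, BARD1, BRIP1 and RAD51C), 5 had mixed signs and none was above 0 on all. Of the 9 such genes of mismatch repair, end joining and excision repair, 2 were below 0 on all, 2 above 0 on all and 5 mixed. Of all 6428 genes with several measured probe sets, 21.8% were below 0 on all of them. Over single probe sets, 32 of 38 for recombination and Fanconi genes were below 0 (median -0.35), and 13 of 32 for the other repair genes (median 0.03). Of all 24507 measured probe sets annotated to a single gene, 11729 were below 0 (median 0.01).

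The 2 groups also differed in signal. The median signal of recombination and Fanconi genes was 521.4 in the siSHISA2 array and 661.8 in the siCONTROL array, and that of the other repair genes 1802.5 in the siSHISA2 array and 1679 in the siCONTROL array. Low signals are noisier on these arrays, as the wider scatter of all genes at low signal shows. With both signals above 387.3, 12 recombination and Fanconi genes were left, with a median of -0.33, 11 of 12 below 0, 7 at least 0.3 lower and none at least 0.3 higher. The 14 other repair genes so bright had a median of 0.03, with 5 below 0, 1 at least 0.3 lower and none at least 0.3 higher. Of the 7650 measured genes so bright, 49.8% were below 0, 7.95% at least 0.3 lower and 5.53% at least 0.3 higher. The 7 bright lower members were FANCI, BRCA1, BARD1, BRIP1, RAD51AP1, RAD54B and EXO1.

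**Figure D3:**
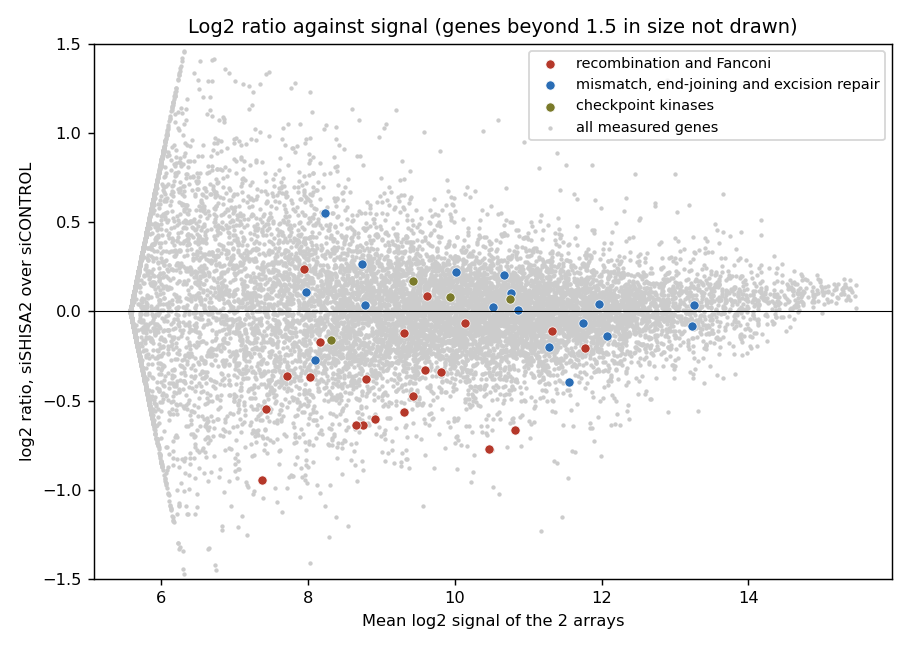
Log2 ratio, siSHISA2 over siCONTROL (vertical axis), against the mean log2 signal of the 2 arrays (horizontal axis), with all measured genes in grey and the 42 repair genes in colour. The scatter of grey points widens to the left. Recombination and Fanconi genes lie below 0 in 19 of 21 cases over all signals, and in 11 of the 12 with both signals above 387.3.

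Further genes of the same pathways, which are not among the 47, were looked at as lists. Of 37 further recombination and Fanconi genes 36 were measured, with a median of -0.07 and 24 below 0. At least 0.3 lower were 3 (8.33%) and at least 0.3 higher 2, against 13.0% and 14.4% of all measured genes, and 66.7% of the 21 members were at least 0.3 lower. Its lowest were RAD52, an annealing protein (-0.65, with 0.09 on its other probe set), RMI2, a partner of BLM (-0.63), and the ubiquitin ligase RAD18 (-0.43, with probe sets up to 0.27). The 2 higher ones were the helicase HELQ (0.40, with probe sets from -0.22 to 0.40) and the polymerase POLN (0.61, a bound at 73.2 with siSHISA2, against a siCONTROL signal under the floor). Next came the nuclease FAN1, just under 0.3 with probe sets from -0.73 to 0.62, and RAD50. The single-strand binding proteins RPA1, RPA2 and RPA3 had ratios of -0.13, -0.08 and -0.10, and UBE2T, the ubiquitin-conjugating enzyme of the Fanconi pathway, -0.17. The 3 measured probe sets of RPA1 ran from -0.70 to -0.13. POLN, RPA1, RPA2, RPA3 and UBE2T were picked for mention with their values known.

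Of 45 further genes of mismatch repair, end joining and excision repair 37 were measured, with a median of 0.03 and 17 below 0. At least 0.3 lower were 2 (5.41%) and at least 0.3 higher 5 (13.5%), against 13.0% and 14.4% of all measured genes. The damage sensor DDB2 (-0.44), the glycosylase NEIL3 (-0.32) and the nuclease APEX2 (-0.29, with 0.18 on its other probe set) were lowest. UVSSA (0.44, with probe sets from -0.73 to 0.44), which acts at stalled polymerases, the TFIIH subunit MNAT1 (0.42) and the glycosylase NEIL2 (0.41) were highest.

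The recombination and Fanconi genes were set beside the cell cycle genes that many of them are transcribed with. A list of 44 DNA replication and nucleotide supply genes had a median of -0.28 over 43 measured, with 38 below 0 and 21 at least 0.3 lower (48.8%). TIMELESS (-0.79, with 0.05 on its other probe set), ORC1 (-0.74) and CDC45 (-0.67) were its lowest. All 32 mitosis, spindle and kinetochore genes were below 0, with a median of -0.46 and 29 at least 0.3 lower (90.6%), led by KIF23 (-0.68) and CDC25C (-0.67, with 0.27 on its other measured probe set). The share of the 21 recombination and Fanconi members at least 0.3 lower, 66.7%, lay between the 2. That of the 36 further measured genes of these pathways, 8.33%, lay below both. Of all measured genes, 47.8% were below 0 and 13.0% at least 0.3 lower. The part of cell cycle stage in the lower repair signals was not tested.

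**Figure D4:**
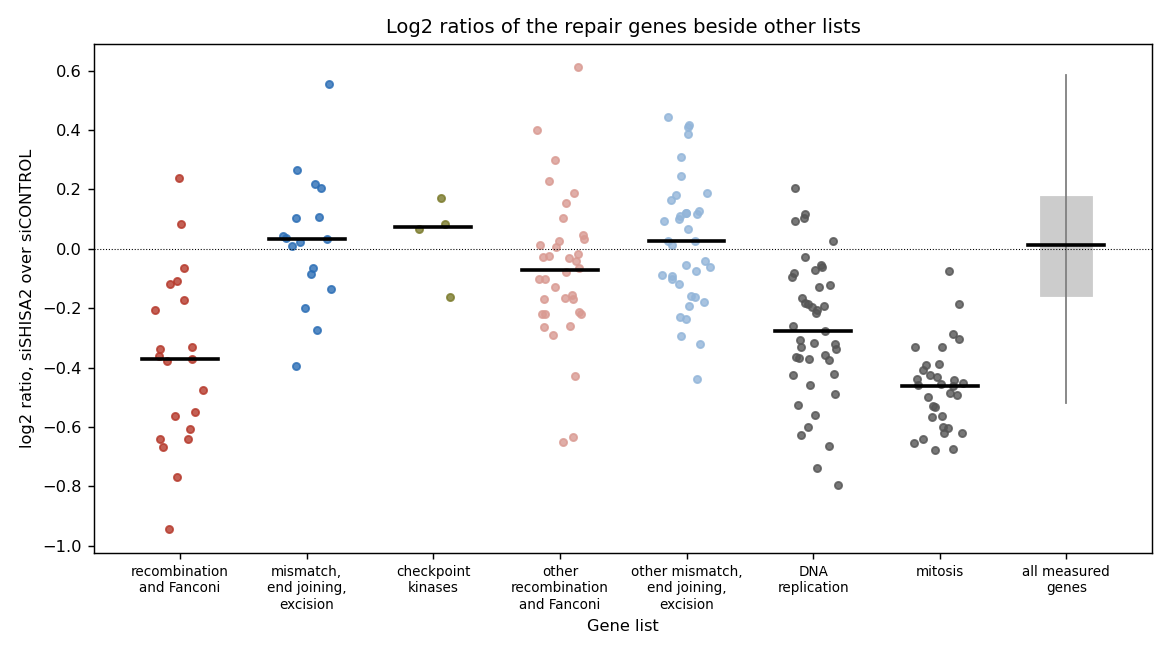
Log2 ratios, siSHISA2 over siCONTROL (vertical axis), of each measured gene in the 3 groups of repair genes, in further repair genes and in replication and mitosis genes (points, with black bars at medians); for all measured genes the box spans the 25th to 75th percentile, the thin line the 5th to 95th. Medians are -0.37 for the recombination and Fanconi members, 0.03 for the other repair members, -0.28 for replication and -0.46 for mitosis. The further genes have medians of -0.07 for recombination and Fanconi and 0.03 for mismatch, end-joining and excision repair.

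The difference between the groups was of similar size under other scalings and floors. It was -0.40 after median centring, -0.42 after quantile normalization and -0.42 after a loess trend of ratio on signal was removed. In each, 14 recombination and Fanconi genes were at least 0.3 lower, against 14.0%, 14.3% and 14.4% of all measured genes. With probe sets averaged per gene the difference was -0.38, with 13 lower, against 11.9% of all measured genes. These were not all the same genes: BRCA1 (-0.11) and FANCC (-0.05) were no longer among them, while FANCM (-0.31) was. Without probe sets that may cross-match it was -0.45, with 11 of 16 lower, against 14.5% of all measured genes.

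**Figure D5:**
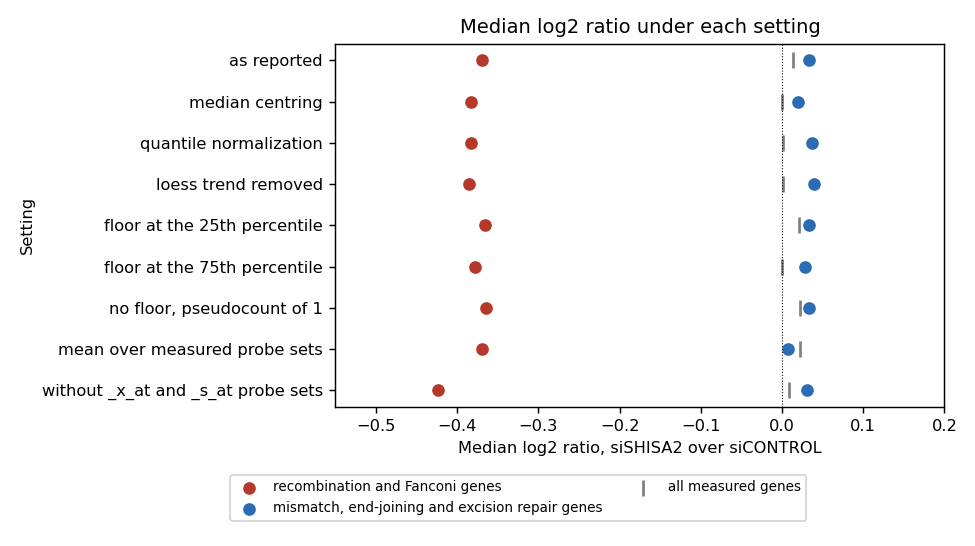
Median log2 ratio, siSHISA2 over siCONTROL (horizontal axis), of recombination and Fanconi genes (red), of mismatch, end-joining and excision repair genes (blue) and of all measured genes (grey ticks) under each of 9 settings (rows). The red points lie between -0.42 and -0.36 and the blue ones between 0.01 and 0.04.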

How the data were processed

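The authors deposited linear probe-set intensities, for which the submitters' processing notes name MAS5, version not given in the sources used here. Their mean after trimming 2% at each end was 500.1 in both arrays, so no further scaling was applied. Of 54675 probe sets 62 controls were left out. The annotation table names 1 gene for 41091 probe sets and several for 1801, and 11721 are not listed. Gene names were checked against RefSeq (GRCh38.p14). The floor was the median of all signals of both arrays (47.9), and lower signals were raised to it. A gene with no signal above it was not measured. The 75th percentile was 387.3. With 1 array per group no test was run. The size of 0.3 is a description. Every member may be named; other genes are named by size within their list (up to 3 per direction), or marked. The members, lists and motifs were chosen with earlier results of these data known. Alternatives were 3 scalings, 3 floors, averaged probe sets, no shared probe sets, and other sizes and group limits. Python 3.11.15 with pandas 2.3.3 and statsmodels 0.14.6 was used, and the procedure was tested on simulated data.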

Additional observations from a re-analysis of the deposited data

How the results depend on the processing

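The difference between the medians of the 2 groups of repair genes kept its direction in all alternatives run, from -0.45 to -0.38 under the 8 other scalings, floors and probe-set rules and from -0.41 to -0.37 with other limits of the recombination group (MRE11 and NBN left out, kinases added, resection genes left out). The count of members at least 0.3 lower was 15, against 8 at a size of 0.5 and 0 at a size of 1, as fewer genes pass a larger size. Of 317 values of single members under the alternatives, 308 moved by less than 0.286. The sign turned for 7 of the 42 members in at least 1 alternative, of which 2 had been at least 0.3 in size. These 2 were OGG1, at -0.080 with its probe sets averaged, and FANCC, at 0.29 without the kinds of probe set that may cross-match. With probe sets averaged, FANCM read -0.31, ATM -0.17, MRE11 0.03 and ERCC1 -0.02, and without those kinds MRE11 read 0.17 and ERCC1 -0.07. UNG read -0.01 after median centring. FANCI, BRCA1 and FANCC stayed below 0 when averaged, at -0.34, -0.11 and -0.05. PMS1 averaged 0.41 and read 0.69 without those kinds, where XRCC5 read 0.32 and the mismatch repair median was 0.28. Without those kinds the resection and dissolution genes had a median of -0.61, lower than that of strand exchange (-0.48). No paired analysis was possible because each group has 1 array. XRCC2, FANCE and FANCB rest on dim signals, and 16 of the 42 values come from probe sets that may cross-match.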
